A study of Mus musculus with 28 samples.

Results

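The guanylate-binding proteins are a family of large GTPases, and 8 mouse genes of the family are described here: Gbp2, Gbp3, Gbp4, Gbp5, Gbp6, Gbp7, Gbp8 and Gbp9. The members were taken as a list of gene symbols, matched to the Ensembl gene IDs of the files, and are 8 of 55487 genes measured. All 8 were found in every library and all 8 passed the filter on low values (at least 1 TPM in at least 4 libraries).

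Interferon-gamma (IFN-γ) signals from its receptor to the nucleus and induces the transcription factor IRF1. IRF1 binds interferon-stimulated response elements, gamma-activated sites are the other classical motif of the pathway, and Gbp genes are classical targets of this pathway in macrophages. The proteins assemble on the membranes of intracellular pathogens and their vacuoles, help to break them, and promote inflammasome activation. IL-10 acts mainly through STAT3 and is known for restraining macrophage activation.

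RNA was sequenced from 28 libraries of wild-type mouse bone marrow derived macrophages, in 7 groups of 4. The M0 group had no polarizing cytokine for 48 h. For IFN-γ and for IL-10, each at 50 ng/mL for 48 h, there were 3 sorted groups: macrophages that had engulfed apoptotic regulatory T cells (Treg-phagocytic), those that had engulfed apoptotic CD4 T cells of the conventional kind (Tconv-phagocytic), and those that had engulfed neither (non-phagocytic). The series asks how uptake of either kind of apoptotic T cell alters macrophage transcripts under each cytokine. Every group is wild-type. T cells were killed with ATP/NAD+ and carried an anti-CD4 antibody with a BV421 or Ax647 dye. The dye and number in its title stand for each of the 16 phagocytic libraries, although the library names give the other dye for all 8 Treg-phagocytic ones. The labels of M0 mention neither T cells nor uptake, so the cytokine and these steps cannot be told apart in a comparison with M0.

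Levels are given in TPM, a share of all transcripts that is corrected for transcript length. Differences are on the log2(TPM + 1) scale after scaling between libraries, each with a standard error (SE), and this scale understates the change of low genes. A gene was called at an adjusted p under 0.05 (limma, Benjamini-Hochberg over 13631 genes). Where groups of libraries are said not to overlap, the share of all genes for which this holds was not counted. Such statements describe the members and do not set them apart from other genes. Read totals are unknown, but the value of 1 read could be estimated: relative to the deepest library, depth was 11.3% to 24.4% in the IFN-γ libraries, 49.3% to 90.1% with IL-10 and 68.7% or more in M0. Low members rest on fewer reads under IFN-γ. The macrophage label was borne out by the markers: the summed level of 10 macrophage markers was 16750 to 21540 TPM in every library, with none of the 10 at 0 throughout a group. Lyz2 alone held most of this sum, with a mean of 16300 TPM in M0, where the mean sum was 20590 TPM.

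T cell transcripts were present as well. The summed level of 20 T cell markers was 218.1 to 334.3 TPM in M0, 648.9 to 1037 in IFN-γ non-phagocytic, 752.4 to 946 in IFN-γ Tconv-phagocytic and 746.8 to 1149 in IFN-γ Treg-phagocytic libraries. In IL-10 libraries it was 196.3 to 207.3 non-phagocytic, 225.4 to 273.1 Tconv-phagocytic and 320.5 to 355.9 Treg-phagocytic. None of the 20 markers was at 0 in all libraries of any group. Il7r carried much of the sum in M0 (mean 159.2 TPM) and IL-10 non-phagocytic libraries (96.48 TPM), with 95.99 TPM in IFN-γ non-phagocytic libraries. Cd3g was at means of 6.14, 5.848 and 51.67 TPM in these groups. The sums therefore understate how far most other T cell markers differed between IFN-γ and these other groups. In bulk RNA, fewer cells of a type and less RNA per cell cannot be told apart. The part of T cell RNA in the Gbp values was not tested.

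The members lie in 2 clusters of the mm10 (GRCm38) genome, by the GENCODE vM21 annotation. On the plus strand of chromosome 3 lie Gbp5 (ENSMUSG00000105504, chr3:142493978-142522344), Gbp7 (ENSMUSG00000040253, chr3:142530342-142550149), Gbp3 (ENSMUSG00000028268, chr3:142560026-142573209) and Gbp2 (ENSMUSG00000028270, chr3:142620602-142638008). On the minus strand of chromosome 5 lie Gbp8 (ENSMUSG00000034438, chr5:105014150-105139540), Gbp9 (ENSMUSG00000029298, chr5:105077630-105139539), Gbp4 (ENSMUSG00000079363, chr5:105115767-105139586) and Gbp6 (ENSMUSG00000104713, chr5:105270702-105293698). All 8 are annotated as protein coding. The annotated extents of Gbp8 and Gbp9 run over Gbp4 on the same strand. Reads can also be split between near-identical copies: 59.7% of the 50-base windows of the longest Gbp6 transcript occur in another gene (51.5% in Gm43302), against 2.1% for Gbp2 and 18.2% for Gbp8. The values of Gbp6, and of the overlapping Gbp4, Gbp8 and Gbp9, are therefore less certain than those of Gbp2.

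RefSeq promoters (build GRCm38.p6) were matched for Gbp2, Gbp3, Gbp5 and Gbp7. The 250 bases before each transcript start are printed to show where letters of the 2 IFN-γ pathway motifs lie. Capitals mark matches to GAAANNGAA, the core of an interferon-stimulated response element, or TTCNNNGAA, a gamma-activated site, searched on both strands over 250 bases before to 50 after the start.
Gbp2 (chr3:142620413-142620662, + strand): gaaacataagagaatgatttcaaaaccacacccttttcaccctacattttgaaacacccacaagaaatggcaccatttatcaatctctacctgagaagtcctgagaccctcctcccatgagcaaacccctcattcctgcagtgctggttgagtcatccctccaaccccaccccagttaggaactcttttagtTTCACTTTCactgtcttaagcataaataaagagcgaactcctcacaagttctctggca
Gbp3 (chr3:142559794-142560043, + strand): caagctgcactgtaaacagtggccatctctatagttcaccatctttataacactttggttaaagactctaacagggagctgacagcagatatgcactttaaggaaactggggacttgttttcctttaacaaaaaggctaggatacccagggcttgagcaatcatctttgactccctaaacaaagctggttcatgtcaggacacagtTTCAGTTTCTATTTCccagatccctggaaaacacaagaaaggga
Gbp5 (chr3:142496684-142496933, + strand): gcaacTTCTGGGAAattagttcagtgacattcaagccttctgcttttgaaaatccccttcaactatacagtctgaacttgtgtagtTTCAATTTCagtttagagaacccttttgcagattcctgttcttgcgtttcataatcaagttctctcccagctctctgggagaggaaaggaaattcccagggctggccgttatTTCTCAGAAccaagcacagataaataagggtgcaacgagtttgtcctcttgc
Gbp7 (chr3:142530086-142530335, + strand): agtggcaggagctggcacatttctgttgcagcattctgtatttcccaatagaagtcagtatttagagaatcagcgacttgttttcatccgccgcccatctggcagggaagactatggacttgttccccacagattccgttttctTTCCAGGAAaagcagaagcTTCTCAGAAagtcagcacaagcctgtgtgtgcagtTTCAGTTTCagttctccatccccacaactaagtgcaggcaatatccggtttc
Each of these promoters held the response element core, on the opposite strand: at -58 to -50 in Gbp2, at -164 to -156 in Gbp5 and at -52 to -44 in Gbp7. Gbp3 held a pair of overlapping matches, at -44 to -36 and at -38 to -30, and a second Gbp3 promoter in the table held neither motif. Gamma-activated site letters occurred in Gbp5 (-245 to -237 and -52 to -44) and Gbp7 (-106 to -98 and -87 to -79). Of 32851 promoters of the same length, 8.6% held the response element core and 8.3% the gamma-activated site letters. A match is a description of the letters and does not show binding.

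**Figure D1:**
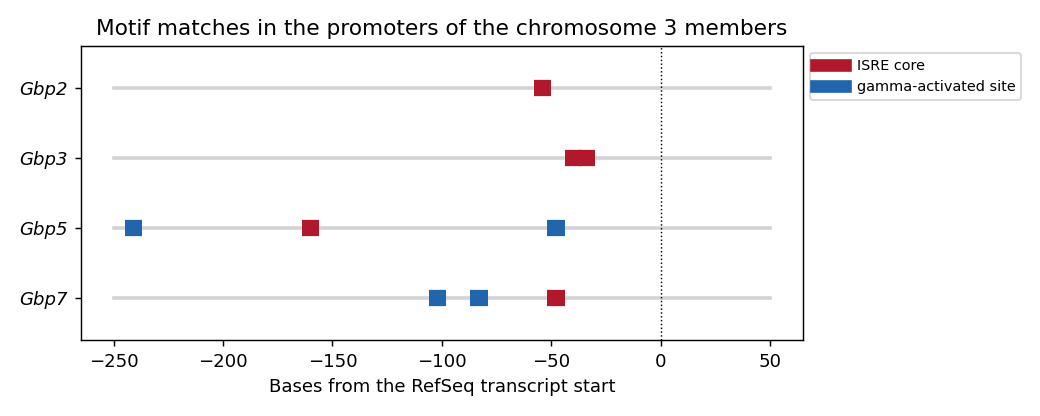
Positions of both motifs from 250 bases before to 50 after the RefSeq transcript start (x axis, bases) in 1 promoter each of Gbp2, Gbp3, Gbp5 and Gbp7. All 4 rows hold a response element core (red), and Gbp5 and Gbp7 also hold gamma-activated site letters (blue).

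Gbp transcripts were scarce without IFN-γ and abundant with it. The summed level of the 8 members was 30.9 ± 3.09 TPM in M0 (SD, n = 4), 433 ± 29.9 in IFN-γ non-phagocytic and 397 ± 73.4 in IFN-γ Tconv-phagocytic libraries. It was 135 ± 9.13 TPM in IFN-γ Treg-phagocytic libraries. With IL-10 it was 32.3 ± 2.02 TPM non-phagocytic, 35.7 ± 4.14 Tconv-phagocytic and 43.2 ± 4.51 Treg-phagocytic. The IFN-γ Treg-phagocytic libraries (123.3 to 142.3 TPM) lay apart from both other IFN-γ groups, whose lowest library was at 308.8 TPM, and above all IL-10 and M0 libraries, whose highest was at 49.64 TPM.

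**Figure D2:**
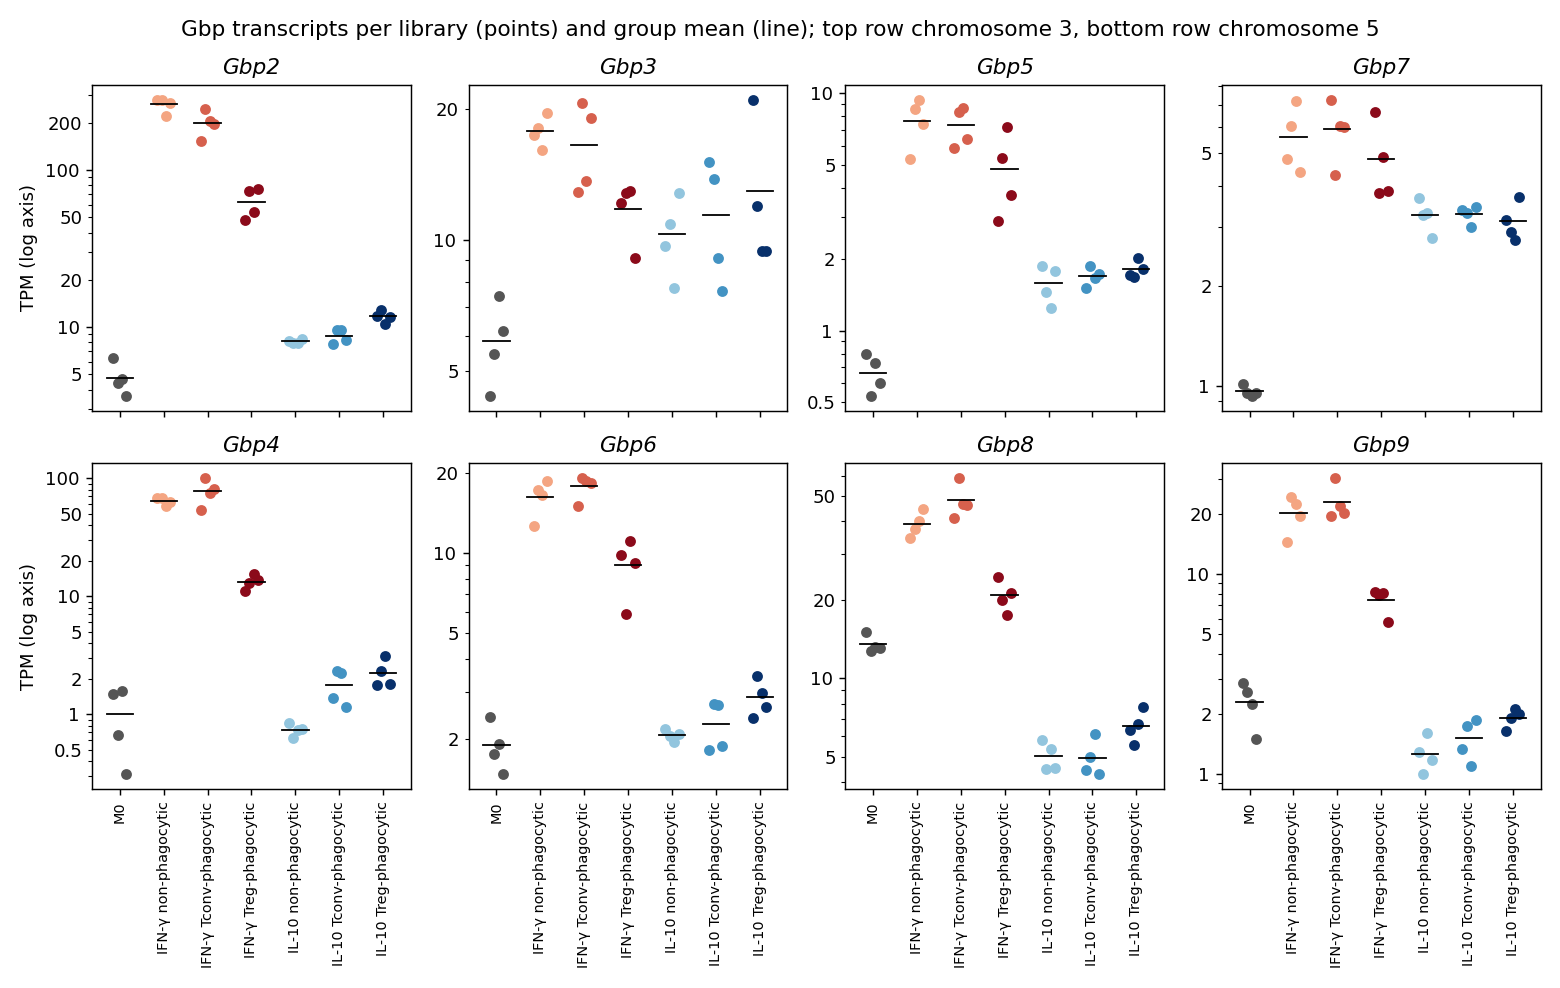
TPM (log axis) of each member in every library (points) with the group mean (line), for the 7 groups of 4 libraries. IFN-γ non-phagocytic and Tconv-phagocytic libraries are highest for most members, and IFN-γ Treg-phagocytic libraries lie between them and the other groups for Gbp2, Gbp4, Gbp6, Gbp8 and Gbp9.

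IFN-γ non-phagocytic libraries were compared with M0 and with IL-10 non-phagocytic libraries, which differ from them in having no polarizing cytokine or a different one. All 8 members were higher in IFN-γ non-phagocytic than in M0 libraries, where 27% of the tested genes were called higher and 26.1% lower. All 8 were also higher than in IL-10 non-phagocytic libraries, against 26% of genes called higher and 25.1% lower. These 2 comparisons share the IFN-γ libraries. With no scaling, 31.5% rather than 50.8% of the calls against M0, and 29.9% rather than 50.9% of those against IL-10, were higher, and all 8 members kept their calls. Markers of other cells moved in both comparisons. Of 6 stromal markers, 5 were called lower against M0 and 5 against IL-10, with sums of 2.67 to 5.84 TPM in IFN-γ non-phagocytic libraries, 99.43 to 116.5 in M0 and 71.73 to 77.49 in IL-10 non-phagocytic libraries. Of 10 macrophage markers, 2 were higher and 7 lower against M0, and 2 were higher and 8 lower against IL-10. In each comparison 4 of 6 B cell and 2 of 6 dendritic cell markers were called higher. Their part in the Gbp values was not tested. The scaling shift between IFN-γ and IL-10 non-phagocytic libraries was -0.30 (log2).

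Gbp2, a lipid-anchored member that attaches to pathogen vacuoles, was the most abundant member in all IFN-γ groups by mean TPM. It was at 6.31, 4.39, 4.64 and 3.64 TPM in M0 and at 278.79, 280.53, 220.77 and 267.86 TPM in IFN-γ non-phagocytic libraries. IL-10 non-phagocytic libraries held 8.13, 7.91, 7.91 and 8.45 TPM. The 3 sets do not overlap. The log2 difference was 5.79 (SE 0.14, adjusted p 3.27e-08) from M0 and 5.13 (SE 0.09, adjusted p 1.37e-09) from IL-10.

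Gbp4 was the member with the lowest mean TPM in IL-10 non-phagocytic libraries. M0 libraries held 1.49, 0.66, 1.57 and 0.31 TPM, IFN-γ non-phagocytic libraries 67.61, 67.85, 57.91 and 63.4 TPM, and IL-10 non-phagocytic libraries 0.84, 0.63, 0.73 and 0.75 TPM. Mean TPM was 63.7 times that of M0 and 87.0 times that of IL-10. M0 and IL-10 libraries overlap, and the IFN-γ libraries lie far above both. The log2 difference was 5.28 (SE 0.205, adjusted p 1.83e-07) from M0 and 5.43 (SE 0.10, adjusted p 2.13e-09) from IL-10.

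The chromosome 5 members Gbp6 and Gbp9, proteins seen on parasite vacuoles, and Gbp8 started from different levels. Gbp6 was at 1.47 to 2.41 TPM in M0, 12.63 to 18.61 in IFN-γ and 1.95 to 2.18 in IL-10 non-phagocytic libraries. Gbp9 was at 1.5 to 2.86 TPM in M0, 14.54 to 24.28 in IFN-γ and 1 to 1.6 in IL-10 non-phagocytic libraries. Gbp8 was the most abundant member in M0 by mean TPM, with 12.69 to 15.05 TPM, and reached 34.65 to 44.58 with IFN-γ and 4.48 to 5.81 with IL-10. For each of them the IFN-γ libraries lay above all M0 and IL-10 non-phagocytic libraries. Against IL-10 the log2 difference was 2.72 for Gbp6, 3.00 for Gbp8 and 3.43 for Gbp9, and against M0 it was 2.80, 1.74 and 2.91 (largest adjusted p of these 6: 3.26e-06).

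On chromosome 3, Gbp5, a lipid-anchored member linked to the NLRP3 inflammasome, was at 0.53 to 0.8 TPM in M0, 5.28 to 9.41 in IFN-γ and 1.25 to 1.87 in IL-10 non-phagocytic libraries. Gbp7, linked to the phagocyte NADPH oxidase, was at 0.93 to 1.01, 4.4 to 7.2 and 2.79 to 3.67 TPM in the same order. Gbp3, another member seen on parasite vacuoles, was at 4.37 to 7.44, 16.09 to 19.51 and 7.73 to 12.82 TPM. For these 3 members none of the 3 groups overlaps another, and IL-10 lies between M0 and IFN-γ. Differences of IFN-γ from IL-10 were smaller than for the other members, with log2 values of 1.95 for Gbp5, 1.03 for Gbp3 and 0.86 for Gbp7 (adjusted p 2.59e-05, 0.000301 and 0.00181). Whether members differ from each other in their response was not tested.

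IL-10 non-phagocytic and M0 libraries were compared directly, and the members moved in both directions. Gbp2, Gbp3, Gbp5 and Gbp7, the 4 members on chromosome 3, were higher with IL-10, and Gbp8 and Gbp9 were lower, against 13.8% of genes called higher and 12.8% lower. Gbp7 rose by 1.06 on the log2 scale (SE 0.08, adjusted p 2.16e-05), and Gbp8 fell by 1.26 (SE 0.09, adjusted p 1.31e-05). The groups do not overlap for either gene. The rise of Gbp7 was 0.43 with a pseudocount of 5 and 1.63 with a pseudocount of 0.1, called with both. Gbp2 rose by 0.66 (adjusted p 0.00426), Gbp3 by 0.70 (0.0171) and Gbp5 by 0.59 (0.00255), and Gbp9 fell by 0.52 (0.0272). Gbp4 (-0.15, 95% interval -0.61 to 0.30) and Gbp6 (0.08, -0.14 to 0.31) were not called. The call of Gbp9 was lost when any 1 of 6 libraries was left out (M0 replicates 1, 2 and 3 and IL-10 replicates 1, 2 and 4), with an adjusted p of 0.000732 to 0.0847 over its alternatives. With no filter on low values Gbp9 and Gbp3 were not called (Gbp3 at an adjusted p of 0.0632, with 0.00573 to 0.0632 over its alternatives). Of 6 stromal markers 5 were lower, and of 10 macrophage markers 7 were higher and 3 lower with IL-10. Their part was not tested.

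Macrophages that had taken up Treg or Tconv cells under IFN-γ were compared next. Of the 8 members, 5 were lower in Treg-phagocytic libraries (Gbp2, Gbp4, Gbp6, Gbp8 and Gbp9) and 0 were higher, against 7.3% of genes called lower and 5.41% higher. The 5 include all 4 chromosome 5 members and, of the chromosome 3 members, Gbp2. With no scaling, 15.1% rather than 42.6% of the calls over all genes were higher, the shift of the scaling was -0.12 (log2), and the same 5 members kept their calls.

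Gbp4 differed most. Tconv-phagocytic libraries BV421-1, BV421-2, Ax647-1 and Ax647-2 held 53.87, 100.52, 74.9 and 81.63 TPM. Treg-phagocytic libraries Ax647-1, Ax647-2, BV421-1 and BV421-2 held 11.12, 13.01, 15.3 and 13.6 TPM. The groups are far apart, with every Treg-phagocytic library below the lowest Tconv-phagocytic library, 53.87 TPM. The difference was -2.33 (SE 0.18, 95% interval -2.75 to -1.91, adjusted p 0.000838), or 5.02-fold lower on the TPM + 1 scale.

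Gbp2 followed. Its Tconv-phagocytic libraries, in the same order, held 152.93, 246.33, 204.19 and 197.28 TPM. Its Treg-phagocytic libraries held 47.93, 73.55, 54.07 and 75.34 TPM. Again no Treg-phagocytic library reached any Tconv-phagocytic library. The difference was -1.54 (SE 0.19, adjusted p 0.00265), or 2.91-fold lower.

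Gbp9 held 19.64, 30.32, 21.91 and 20.26 TPM in Tconv-phagocytic libraries and 8.18, 7.85, 8.09 and 5.74 TPM in Treg-phagocytic libraries. Gbp8 held 41.35, 58.8, 46.55 and 46.33 TPM against 24.53, 20.04, 17.48 and 21.22 TPM. Gbp6 held 14.98, 19.13, 18.68 and 18.38 TPM against 9.8, 5.86, 11.06 and 9.15 TPM. The groups do not overlap for any of them. Differences were -1.39 for Gbp9 (SE 0.17, adjusted p 0.00235), -1.06 for Gbp8 (SE 0.13, adjusted p 0.0027) and -0.83 for Gbp6 (SE 0.18, adjusted p 0.0229). The call of Gbp6 was lost without Tconv-phagocytic BV421-2, Ax647-1 or Ax647-2 (adjusted p 0.071, 0.0671 and 0.0666), and its adjusted p was 0.000133 to 0.33 over all its alternatives.

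Gbp3, Gbp5 and Gbp7 were not called, and their groups overlap. Gbp3 held 12.84, 20.59, 13.62 and 19.02 TPM in Tconv-phagocytic and 12.14, 12.83, 12.91 and 9.06 TPM in Treg-phagocytic libraries, a difference of -0.33 (95% interval -0.75 to 0.09). Gbp5 held 5.9, 8.37, 8.7 and 6.45 against 2.9, 5.34, 7.23 and 3.72 TPM, a difference of -0.47 (-1.07 to 0.12). For Gbp7, with 7.25, 4.31, 6.06 and 6.01 against 6.68, 3.8, 4.87 and 3.85 TPM, it was -0.16 (-0.65 to 0.33). The interval of Gbp5 reaches a fall as large as that of Gbp8. Gbp5 was called with a model of all 28 libraries and 1 variance (adjusted p 0.0486, with 0.0486 to 0.776 over its alternatives).

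The dye in the title splits each of these groups into 2 pairs of libraries. For the 5 called members the groups do not overlap, so the direction could not change in such a split. By the library names the Treg-phagocytic libraries carry the other dye, so it is unsure that these fits hold the dye fixed. With BV421 libraries alone the difference was -2.17 for Gbp4, -1.60 for Gbp9, -1.47 for Gbp2, -1.20 for Gbp8 and -0.59 for Gbp6. With Ax647 libraries alone it was -2.49 for Gbp4, -1.61 for Gbp2, -1.18 for Gbp9, -1.07 for Gbp6 and -0.91 for Gbp8. With 2 libraries against 2, no gene of all those tested was called, and the adjusted p of these 5 members lay between 0.104 and 0.33. Over all alternatives the adjusted p ran from 1.14e-09 to 0.261 for Gbp4, from 9.58e-09 to 0.262 for Gbp2, from 2e-07 to 0.261 for Gbp8 and from 2.53e-07 to 0.261 for Gbp9.

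Against IFN-γ non-phagocytic libraries, Treg-phagocytic libraries were lower for Gbp2 (-1.99, adjusted p 0.00101), Gbp4 (-2.13, adjusted p 0.000188), Gbp8 (-0.81, adjusted p 0.00629) and Gbp9 (-1.25, adjusted p 0.00549). These 4 of 8 stand beside 5.28% of genes called lower and 3% higher, of which 36.2% were higher calls, or 17.5% with no scaling. The comparison shares its Treg-phagocytic libraries with the one above. Gbp6 (-0.74, adjusted p 0.0612) and Gbp3 (-0.50, adjusted p 0.0552) narrowly missed the threshold, and Gbp5 (-0.56, adjusted p 0.278) and Gbp7 (-0.14, adjusted p 0.759) were not called. With no scaling Gbp6 (adjusted p 0.0492) and Gbp3 (0.0403) were called by limma. Over all alternatives the adjusted p was 0.000591 to 0.151 for Gbp6, 0.0403 to 0.561 for Gbp3 and 0.0231 to 0.535 for Gbp5. For Gbp6 the groups nevertheless do not overlap, with 5.86 to 11.06 against 12.63 to 18.61 TPM.

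Between IFN-γ Tconv-phagocytic and non-phagocytic libraries no member was called by limma, and 1 (Gbp2, unadjusted p 0.0121) had an unadjusted p under 0.05. Over all genes, 0% were called higher and 0.00734% lower. Differences ran from -0.45 for Gbp2 (95% interval -0.77 to -0.13) to 0.24 for Gbp8 (-0.03 to 0.52). The others were -0.17 for Gbp3, -0.09 for Gbp5, 0.02 for Gbp7, 0.09 for Gbp6, 0.14 for Gbp9 and 0.19 for Gbp4. With 1 gene called of all those tested, the lack of calls does not show that the members were alike. For the members called lower in Treg-phagocytic libraries, the intervals ended at -0.77 (Gbp2), -0.19 (Gbp4), -0.03 (Gbp8) and -0.29 (Gbp9). These ends lie above the Treg-phagocytic differences of -1.99, -2.13, -0.81 and -1.25. The intervals of Gbp3 and Gbp7, not called there, include theirs.

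T cell and macrophage markers were read beside these results. Between IFN-γ Treg- and Tconv-phagocytic libraries the summed T cell markers overlap (746.8 to 1149 against 752.4 to 946 TPM), and 2 of 20 T cell markers were called higher and 0 lower. Of 10 macrophage markers, 6 were higher and 1 was lower in Treg-phagocytic libraries, while the summed macrophage level was 21030 to 21540 against 16750 to 19100 TPM. Lyz2 held most of both sums, at means of 18160 against 15050 TPM. Stromal markers summed to 1.26 to 3.91 against 2.08 to 6.43 TPM. Relative depth was 11.3% to 20.5% against 20.9% to 24.4%, so the Treg-phagocytic libraries were also the shallower ones. The part of depth in the Gbp result was not tested.

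The groups sorted by uptake showed a different pattern with IL-10. Between IL-10 Treg- and Tconv-phagocytic libraries 0 of 8 members were called by limma, and 2 (Gbp2 and Gbp8) had an unadjusted p under 0.05. Of all genes, 0.47% were called higher and 0.932% lower. Gbp2 held 7.75, 9.54, 9.63 and 8.31 TPM in Tconv-phagocytic and 11.69, 12.94, 10.49 and 11.66 TPM in Treg-phagocytic libraries. Every Treg-phagocytic library is above every Tconv-phagocytic library, and the difference was 0.37 (95% interval 0.17 to 0.57, adjusted p 0.101).

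The other members were closer or overlapped with IL-10. Gbp8 differed by 0.34 (95% interval 0.06 to 0.62), Gbp6 by 0.24 (-0.06 to 0.54), Gbp4 by 0.23 (-0.20 to 0.65) and Gbp9 by 0.22 (-0.05 to 0.48). Gbp5 differed by 0.06 (-0.13 to 0.25) and Gbp7 by -0.06 (-0.27 to 0.15). Gbp3 was the most scattered member with IL-10: Treg-phagocytic Ax647-1 held 20.98 TPM and the other three 9.4 to 11.93 TPM. Tconv-phagocytic libraries of Gbp3 held 15.09, 13.8, 9.06 and 7.64 TPM. Its difference of 0.14 (-0.51 to 0.80) turned to -0.10 without Treg-phagocytic Ax647-1. Stromal markers moved in this comparison, with 6 of 6 called lower and sums of 24.01 to 27.11 against 130.5 to 135.4 TPM. Of 20 T cell markers, 2 were called higher and 0 lower, but their sums do not overlap (320.5 to 355.9 against 225.4 to 273.1 TPM). Summed B cell markers did not overlap either, at 28.52 to 29.84 against 13.78 to 16.61 TPM. Their part in the Gbp values was not tested.

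**Figure D3:**
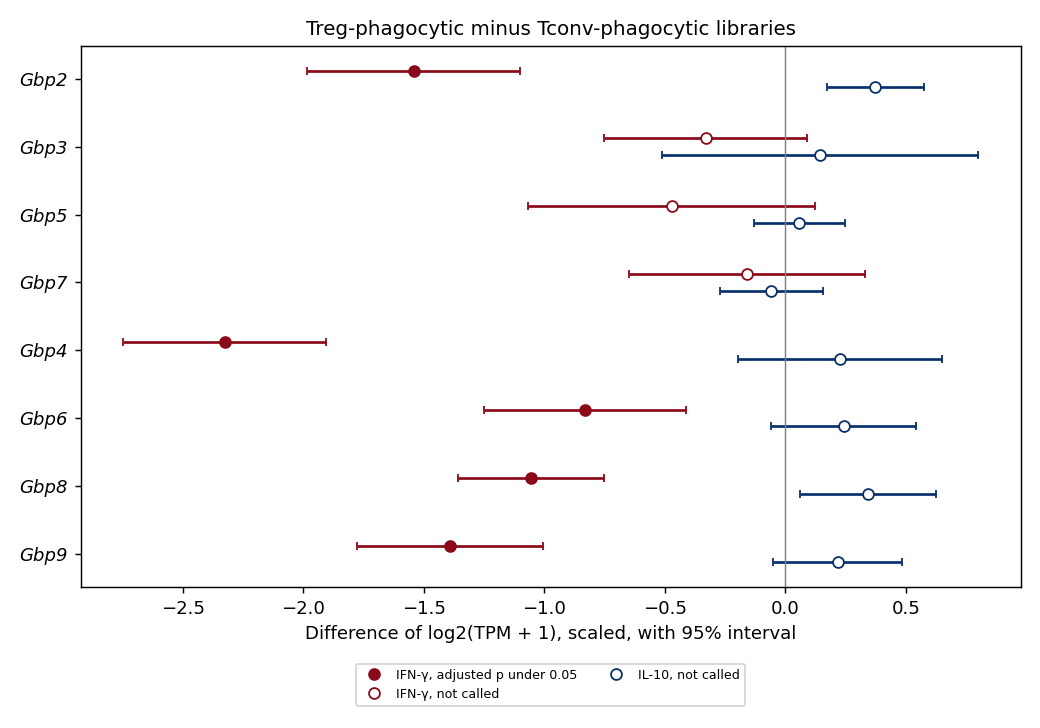
Difference between Treg- and Tconv-phagocytic libraries (x axis, log2 of scaled TPM + 1) for each member with IFN-γ (red) and IL-10 (blue), 4 libraries a group, bars 95% intervals, filled points called. Filled points lie at -0.83 to -2.33 with IFN-γ, and no IL-10 point is filled.

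Whether the Treg against Tconv difference itself depends on the cytokine was tested as a difference of differences over 16 libraries. Gbp2 (-1.91, SE 0.21, adjusted p 2.95e-05), Gbp4 (-2.55, SE 0.36, adjusted p 0.000239), Gbp6 (-1.07, SE 0.27, adjusted p 0.0146), Gbp8 (-1.40, SE 0.24, adjusted p 0.00101) and Gbp9 (-1.61, SE 0.25, adjusted p 0.000505) were called lower with IFN-γ. These 5 of 8 stand against 7.39% of genes called lower and 5.09% higher, and 40.8% of calls were higher, or 17.7% with no scaling. Gbp3 (-0.47, adjusted p 0.625), Gbp5 (-0.53, adjusted p 0.182) and Gbp7 (-0.10, adjusted p 0.828) were not called. The count stayed at 5 in all 25 alternatives run for this test. Mean levels in IL-10 Tconv-phagocytic libraries were 1.775 TPM for Gbp4 and 1.513 TPM for Gbp9. From such levels a fall as large as that with IFN-γ could not appear on the log2(TPM + 1) scale. For Gbp4 and Gbp9 the test therefore cannot tell whether an equal fall was absent with IL-10.

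The same test for Treg-phagocytic against non-phagocytic libraries shares the Treg-phagocytic libraries. It called the same 5 members lower with IFN-γ, at -2.54 for Gbp2, -3.03 for Gbp4, -1.12 for Gbp6, -1.20 for Gbp8 and -1.65 for Gbp9 (largest adjusted p 0.00543), against 5.55% of genes called lower and 2.6% higher. The same limit of the scale holds for Gbp4 and Gbp9, at means of 0.7375 and 1.268 TPM in IL-10 non-phagocytic libraries. Their own IL-10 differences here were rises, of 0.89 (95% interval 0.59 to 1.20) for Gbp4 and 0.40 (0.16 to 0.64) for Gbp9. For Tconv-phagocytic against non-phagocytic libraries no member was called by limma, with 0.851% of genes called lower and 0.117% higher, of which 12.1% were higher calls, or 70.8% with no scaling. There Gbp2 (-0.62, SE 0.16, unadjusted p 0.00172, adjusted p 0.0993) was the 1 member with an unadjusted p under 0.05. The others ran from -0.47 for Gbp4 to 0.20 for Gbp8, with -0.35 for Gbp3, -0.20 for Gbp5, -0.05 for Gbp7 and -0.04 for Gbp6 and Gbp9.

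With IL-10, both phagocytic groups were also set against non-phagocytic libraries. Treg-phagocytic libraries were higher for 4 of 8 members, against 6.82% of genes called higher and 4.51% lower (60.2% of calls higher, or 26.9% with no scaling, which left 2 members called, Gbp2 and Gbp4). Gbp4 held 1.75, 2.31, 3.08 and 1.81 TPM against 0.84, 0.63, 0.73 and 0.75 TPM, a rise of 0.89 (SE 0.13, adjusted p 0.00439). Gbp2 rose by 0.55 (SE 0.07, adjusted p 0.0024), from 7.91 to 8.45 TPM to 10.49 to 12.94 TPM. For both genes the groups do not overlap.

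Gbp6 (0.37, adjusted p 0.0461) and Gbp9 (0.40, adjusted p 0.0429) were also called higher in that comparison, but close to the threshold. Gbp6 lost its call without any 1 of IL-10 non-phagocytic replicates 1, 2, 3 and 4 or Treg-phagocytic Ax647-2, BV421-1 and BV421-2. Gbp9 lost it without any 1 of non-phagocytic replicates 1, 2 and 4 or the same 3 Treg-phagocytic libraries. Gbp8 (0.39, adjusted p 0.065), Gbp3 (0.32, adjusted p 0.479), Gbp5 (0.17, adjusted p 0.347) and Gbp7 (0.01, adjusted p 0.959) were not called. T cell markers moved with these rises: 18 of 20 were called higher and 0 lower, and their sum was 320.5 to 355.9 against 196.3 to 207.3 TPM. Stromal markers fell, with 5 of 6 called lower. Their part in the rise of Gbp2 and Gbp4 was not tested.

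IL-10 Tconv-phagocytic libraries differed from non-phagocytic libraries in Gbp4 alone among the 8, against 4.21% of genes called higher and 1.81% lower (69.9% of calls higher, or 25.4% with no scaling). Gbp4 held 1.37, 2.34, 2.25 and 1.14 TPM there, all above the non-phagocytic libraries, and rose by 0.67 (SE 0.15, adjusted p 0.0389). The call was lost in 7 of the 8 fits that left out 1 library. The exception was the fit without Tconv-phagocytic Ax647-2. Differences of the other members were 0.17 for Gbp2, 0.18 for Gbp3 and Gbp9, 0.11 for Gbp5, 0.13 for Gbp6, 0.07 for Gbp7 and 0.04 for Gbp8. Here 8 of 20 T cell markers were higher and 0 lower, and 4 of 6 stromal markers were higher. Their part was not tested.

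IFN-γ and IL-10 libraries were then compared within each phagocytic state. In Tconv-phagocytic libraries all 8 members were higher with IFN-γ, against 26.9% of genes called higher and 25.2% lower (51.6% of calls higher, or 37.5% with no scaling). Log2 differences ran from 4.96 for Gbp4 and 4.51 for Gbp2 through 3.39 for Gbp9, 3.2 for Gbp8, 2.67 for Gbp6 and 1.75 for Gbp5 to 0.81 for Gbp7 and 0.68 for Gbp3. Gbp3 had the weakest call (adjusted p 0.0325), lost without any 1 of IFN-γ BV421-2, IFN-γ Ax647-2, IL-10 Ax647-1 or IL-10 Ax647-2 (adjusted p 0.0797 to 0.0898). That call was also lost with no scaling (adjusted p 0.0829), no filter (0.107) and a model of all 28 libraries with a variance weight per group (0.0736), with 0.0115 to 0.107 over all its alternatives.

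In Treg-phagocytic libraries 7 members were higher with IFN-γ, against 18.5% of genes called higher and 18.2% lower (50.4% of calls higher, or 24.4% with no scaling). Differences were 2.59 for Gbp2, 2.41 for Gbp4, 1.80 for Gbp8, 1.78 for Gbp9, 1.60 for Gbp6, 1.22 for Gbp5 and 0.71 for Gbp7. With no scaling Gbp7 was at 0.47 and was not called (adjusted p 0.0657, with 0.000354 to 0.0657 over its alternatives), which left 6 members. Gbp3, with 9.06 to 12.91 TPM against 9.4 to 20.98 TPM, differed by 0.21 (95% interval -0.36 to 0.77, adjusted p 0.55). Mean TPM of Gbp2 was 5.36 times the IL-10 level in Treg-phagocytic libraries, 22.7 times in Tconv-phagocytic and 32.3 times in non-phagocytic libraries. For Gbp4 these ratios were 5.92, 43.8 and 87.0. T cell markers were also called higher with IFN-γ, after scaling, in every uptake state: 20 of 20 in each of the 3 comparisons with IL-10 and 18 of 20, with 1 lower, against M0. Among the 20, Il7r had nearly equal mean TPM in non-phagocytic libraries, 95.99 with IFN-γ and 96.48 with IL-10, before a scaling shift of -0.30 (log2). The part of T cell markers in these differences was not tested.

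**Figure D4:**
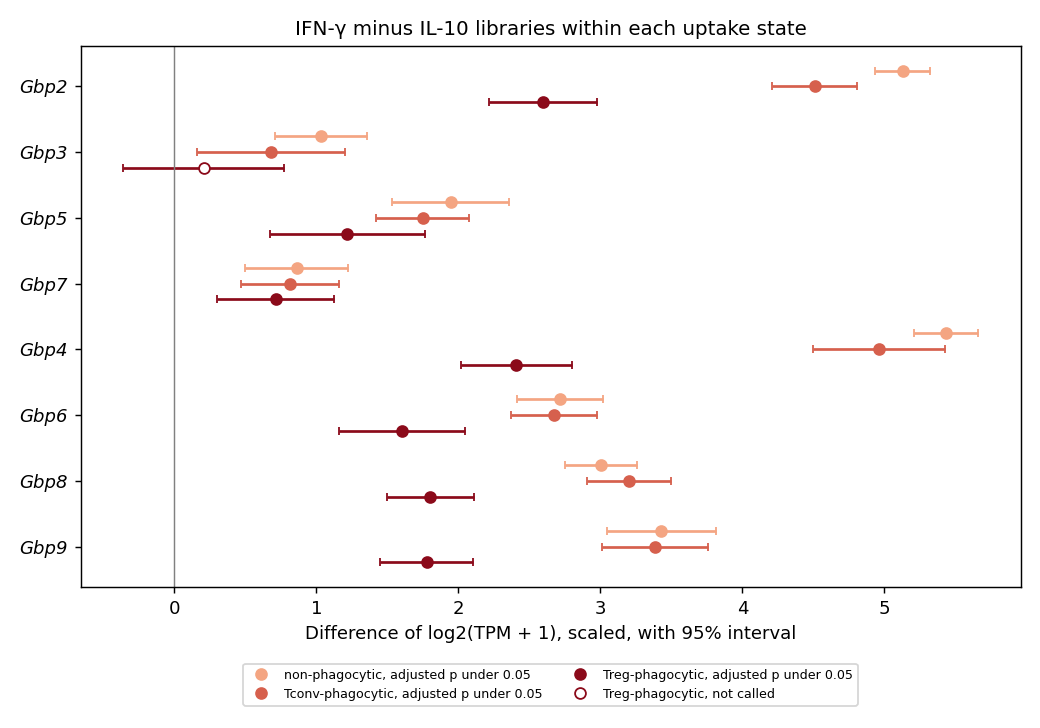
Difference between IFN-γ and IL-10 libraries (x axis, log2 of scaled TPM + 1) for each member in non-phagocytic, Tconv-phagocytic and Treg-phagocytic macrophages, 4 libraries a group, bars 95% intervals, filled points called. Treg-phagocytic points lie left of both others for all 8 members, and for Gbp3 the Treg-phagocytic point is not called.

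The make-up of the Gbp pool differed between groups. Gbp8 took 43.8% ± 2.73 of the summed TPM in M0 (SD, n = 4) and 9.1% ± 1.24 in IFN-γ non-phagocytic libraries. Gbp2 took 15.2% ± 2.28 in M0, 60.4% ± 3.07 in IFN-γ non-phagocytic, 50.4% ± 0.97 in IFN-γ Tconv-phagocytic and 46.3% ± 7.23 in IFN-γ Treg-phagocytic libraries. In IL-10 libraries Gbp3 had the largest mean share, from 29.3% to 31.6% in the 3 groups, followed by Gbp2 with 24.8% to 27.3%. Single libraries did not all follow this order. Among IL-10 Treg-phagocytic libraries only Ax647-1 had more Gbp3 than Gbp2 (20.98 against 11.69 TPM). Gbp2 was also above Gbp3 in IL-10 Tconv-phagocytic Ax647-1 and Ax647-2 and in non-phagocytic replicate 3. The share of Gbp4 was 19.4% ± 1.52 in IFN-γ Tconv-phagocytic and 9.86% ± 1.24 in IFN-γ Treg-phagocytic libraries. That of Gbp3 was 4.16% ± 0.56 and 8.78% ± 1.64. These shares describe the libraries and were not tested.

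**Figure D5:**
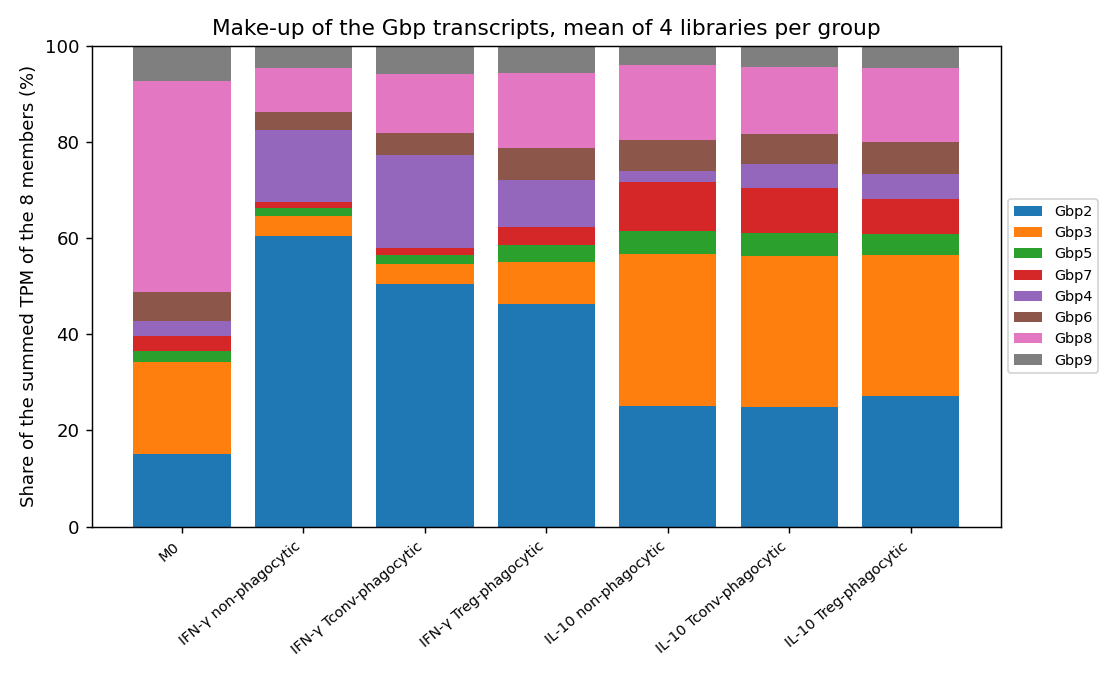
Mean share (y axis, percent) of each member in the summed TPM of the 8 members, for the 7 groups of 4 libraries. By these means Gbp8 is the largest part in M0, Gbp2 in the IFN-γ groups and Gbp3 in the IL-10 groups. Some libraries of each IL-10 group had more Gbp2 than Gbp3.

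By mean level, IFN-γ non-phagocytic libraries came first for Gbp2, Gbp3 and Gbp5, and IFN-γ Tconv-phagocytic libraries for Gbp4, Gbp6, Gbp7, Gbp8 and Gbp9. These 2 groups overlap for every member and did not differ by the test. The third place was held by IFN-γ Treg-phagocytic libraries for all members except Gbp3, for which IL-10 Treg-phagocytic libraries had the higher mean (12.9 ± 5.50 against 11.7 ± 1.82 TPM, SD, n = 4). The order among the 3 IL-10 groups lay within their spread for Gbp3, Gbp5 and Gbp7. M0 came last for Gbp2, Gbp3, Gbp5, Gbp6 and Gbp7, while for Gbp8 and Gbp9 it stood above all 3 IL-10 groups.

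The other Gbp loci were low. Gbp2b (chromosome 3) was at 1.72 to 4.35 TPM in IFN-γ non-phagocytic, 2.48 to 4.5 in Tconv-phagocytic and 0.82 to 1.35 in Treg-phagocytic libraries, and was called lower in Treg- than in Tconv-phagocytic libraries (-0.95, adjusted p 0.0206). Gbp10 held 3.09 to 5.68 against 1 to 3.53 TPM and Gbp11, annotated as a polymorphic pseudogene, 0.87 to 2.6 against 0 to 1.03 TPM in the same pair of groups, and neither was called. The windows of Gbp10 are shared to 82.5% with other genes. All 3 loci were higher in IFN-γ non-phagocytic than in M0 and IL-10 non-phagocytic libraries.

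Genes tied to IFN-γ signalling were read from a list of 18, which also holds transactivators of MHC genes. Between IFN-γ Treg- and Tconv-phagocytic libraries 0 were called higher and 8 lower, with a median log2 difference of -0.39 against 0.04 over all genes. Over all genes 7.3% were called lower and 5.41% higher. Stat2, a transcription factor of interferon signalling, was lowest (-1.58, adjusted p 0.00129), at 23.0 ± 3.48 against 76.8 ± 11.7 TPM (SD, n = 4). Nlrc5, a transactivator of MHC class I genes (-1.37, adjusted p 0.00192), and Ciita, the MHC class II transactivator (-1.28, adjusted p 0.0114), followed. The receptor genes Ifngr1 and Ifngr2 were not among the called genes, at 91.5 ± 6.90 against 88.3 ± 3.75 TPM and 38.8 ± 1.69 against 36.7 ± 7.10 TPM. With IL-10 the same list gave 0 higher and 1 lower (Socs3, -0.25), against 0.47% of all genes called higher and 0.932% lower. Against M0, IFN-γ non-phagocytic libraries had 15 of the 18 higher and 1 lower, beside 27% of all genes called higher and 26.1% lower.

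Immunity-related GTPases are a second IFN-γ-induced GTPase family that acts on vacuoles together with Gbp proteins. Of 10 listed, 0 were higher and 4 lower in IFN-γ Treg- than Tconv-phagocytic libraries: Gm4951 (-1.91), Iigp1 (-0.95), Irgm1 (-0.89) and Igtp (-0.52). The list median was -0.44 against 0.04 over all genes, of which 7.3% were called lower and 5.41% higher. With IL-10 the median of the list was 0.14. Against M0, 8 of 10 were higher and 0 lower in IFN-γ non-phagocytic libraries, beside 27% of all genes called higher and 26.1% lower. Of 14 inflammasome partners 1 was higher (Ninj1, 0.26) and 3 lower with IFN-γ: Nlrp1b (-1.07), the DNA sensor Aim2 (-0.94) and the pore-forming Gsdmd (-0.48). The median of that list was -0.02, and its counts stand beside the same 7.3% lower and 5.41% higher.

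Genes that help place or modify Gbp proteins moved less uniformly in the IFN-γ Treg against Tconv comparison. Of 15 matched genes of the ATG8 conjugation machinery and ubiquitin partners, 3 were higher and 2 lower, led by Atg16l1 and Rnf31 (both -1.04), with Gabarap at 0.24 and Sqstm1 at 0.22. The median was 0.18 against 0.04 over all genes. Of 6 enzymes that lipid-anchor CaaX proteins, such as Gbp2 and Gbp5, Pggt1b, a subunit of a prenyl transferase, was lower (-0.74, adjusted p 0.0113) and Icmt was higher (0.40). These lists were chosen with earlier results known and are described only by their counts. The counts stand beside 7.3% of all genes called lower and 5.41% higher, and single calls in such short lists say little.

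Within the 12 IFN-γ libraries, Gbp2, Gbp4, Gbp8 and Gbp9 varied together, with Pearson r of log2 values of 0.94 for Gbp2 with Gbp4, 0.94 for Gbp4 with Gbp9 and 0.93 for Gbp4 with Gbp8. Gbp7 varied least with the rest, with r from -0.11 with Gbp3 to 0.29 with Gbp6. The non-members most like the mean of the members over these 12 libraries were Htt (r 0.98), Dmxl1 (0.98), Xrcc3 (0.97), Krit1 (0.97), Ufd1 (0.97) and Fbxl20 (0.97). Over all 28 libraries they were H2-K2 and mt-Rnr1 (both 0.99), Luc7l3 (0.99), Tial1 (0.99), Cenpa (0.99) and Ly6a (0.98). These values describe likeness across libraries that share cytokine, uptake state and depth, and carry no test.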

How the data were processed

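Per the labels' protocols, directional libraries were prepared from polyA RNA with a NEBNext kit. STAR, RSEM and mm10 are named in the submitters' processing notes; their versions, the annotation and the strand setting are not given in the sources used here. The deposited tables hold 1 library each, with TPM per Ensembl gene ID computed by the authors, per the file headers. Of 55487 IDs, 55141 matched a symbol. Of 378 pairs of libraries, 0 were identical.

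TPM was divided by a trimmed-mean scaling factor (30% of ratios and 5% of levels trimmed at each end) and analysed as log2(value + 1) with limma 3.58.1 in R 4.3.3 (lmFit, and eBayes with a trend). The 13631 genes tested reached 1 TPM in 4 or more libraries. Each pair of groups was fitted on its own 8 libraries. Differences of differences used 16 libraries with a variance weight per group. The fits were tested on simulated data. Relative depth was estimated from the spacing of low values in 14527 genes with a single transcript, of which at least 88.1% per library came within 0.15 reads of whole reads (30% expected for evenly spread values). Alternatives changed the model, scaling, pseudocount, filter, GC and length correction, replicate block, dye or 1 library.

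All 8 members are named in every group. From each list, at most 4 called genes with the largest difference are named; 1 such gene is not reported here, and Ifngr1 and Ifngr2 were chosen after their values were seen. Genes most like the members were the 6 with the highest Pearson r and a mean of at least 5 TPM, without predicted-gene names. Members and lists were chosen with earlier results of these data known. No label says that replicates are separate animals or cultures, so p-values measure only the spread between these samples, which may be technical.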

Additional observations from a re-analysis of the deposited data

Results flagged for a closer look

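Gbp9 in IFN-γ Treg-phagocytic library BV421-2, at 5.74 TPM, lay farther below the other three (7.85 to 8.18 TPM) than the limit used for 4 samples. It was the 1 such library among 56 sets of a member and a group, and chance marks about 1 in 20 sets. Its depth was 16.6% of that of the deepest library.

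The Treg- against Tconv-phagocytic difference differed between IFN-γ and IL-10, by a test of the difference of differences, for Gbp2 (-1.91), Gbp4 (-2.55), Gbp6 (-1.07), Gbp8 (-1.40) and Gbp9 (-1.61). The Treg-phagocytic against non-phagocytic difference did so for the same genes, at -2.54 for Gbp2, -3.03 for Gbp4, -1.12 for Gbp6, -1.20 for Gbp8 and -1.65 for Gbp9. Both tests share the 8 Treg-phagocytic libraries. For Gbp4 and Gbp9 the low IL-10 levels left no room on this scale for a fall as large as that with IFN-γ. Their own IL-10 differences were positive in both comparisons.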

How the results depend on the processing

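Of 2320 values of single members under an alternative, 2199 kept their direction and their side of the threshold, 74 lost a call, 11 gained one and 36 changed sign. The count of members called in IFN-γ Treg- against Tconv-phagocytic libraries was 0 with BV421 libraries alone and 0 with Ax647 libraries alone, where each group has 2 libraries. In IL-10 Treg- against Tconv-phagocytic libraries it was 2 with a model of all 28 libraries and a variance weight per group. Against non-phagocytic libraries the IL-10 Treg-phagocytic count of 4 was 2 with 1 variance for all libraries, no scaling, no filter, a 5 TPM filter, GC and length correction, the replicate block, or both of the last, and 2 to 4 without 1 library. The IL-10 Tconv-phagocytic count of 1 was 0 with 1 variance, a pseudocount of 5, no filter, the replicate block or GC and length correction with the block, and 0 to 1 without 1 library.

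Signs changed only for differences that had not been called. Between IFN-γ Tconv-phagocytic and non-phagocytic libraries Gbp7 was at -0.0023 with GC and length correction, with or without the block. Without 1 library there, Gbp5 ranged from -0.2309 to 0.0055, Gbp6 from -0.0168 to 0.158 and Gbp7 from -0.0747 to 0.146. With IL-10, Gbp3 in Treg- against Tconv-phagocytic libraries was -0.5703 with BV421 alone and -0.1038 to 0.284 without 1 library. Gbp7 in Treg-phagocytic against non-phagocytic libraries was -0.048 with no scaling and -0.0503 to 0.0575 without 1 library, and Gbp8 in Tconv-phagocytic against non-phagocytic libraries was -0.0218 and -0.0432 to 0.1011. Gbp3 in IFN-γ against IL-10 Treg-phagocytic libraries was -0.0687 with no scaling. In the difference of differences for Tconv-phagocytic libraries, no scaling gave 0.0518 for Gbp6, 0.0535 for Gbp7 and 0.0406 for Gbp9, and a pseudocount of 5 gave 0.0127 for Gbp6 and 0.0514 for Gbp9. Without 1 library these ranged from -0.149 to 0.0258, -0.1458 to 0.0748 and -0.1818 to 0.0491. The cause was not tested.

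The numbers in the file names (for M0, in the titles) were tried as a pairing of the libraries. Deviations from the group mean, over all genes tested, correlated at -0.067 to 0.085 between same-numbered libraries of the compared groups. Such values do not show a pairing by number and cannot exclude it. With the replicate block, 4 members were called in IFN-γ Treg- against Tconv-phagocytic libraries, with Gbp6 at an adjusted p of 0.068. Counts over all genes moved too: a model of all 28 libraries with 1 variance called 4433 genes in that comparison against 1732, 3868 against 1129 for IFN-γ Treg-phagocytic against non-phagocytic, 116 against 1 for IFN-γ Tconv-phagocytic against non-phagocytic, and 108 against 191 for Treg- against Tconv-phagocytic libraries with IL-10. For IL-10 Treg- and Tconv-phagocytic against non-phagocytic libraries it called 627 against 1545 and 249 against 821, and 1806 against 3626 for IL-10 against M0. For the differences of differences against non-phagocytic libraries it called 1862 against 1111 (Treg) and 240 against 132 (Tconv). The block called 1033, 451, 63, 805 and 280 genes where 1732, 1129, 191, 1545 and 821 had been called, for Treg against Tconv and Treg against non-phagocytic with IFN-γ, and for Treg against Tconv, Treg against non-phagocytic and Tconv against non-phagocytic with IL-10. Leaving out 1 library gave 1038 to 1656, 664 to 915, 104 to 176, 962 to 1381 and 490 to 611. No filter gave 1076 and 716 for both comparisons with IFN-γ. Gbp5 and Gbp7 had the lowest mean TPM of the members in the IFN-γ libraries, which were also the least deeply sequenced.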
